A study of Mus musculus with 12 samples.

Results

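The cytosolic ribosomal protein genes encode the proteins that, with the ribosomal RNAs, build the ribosome outside mitochondria. They were taken as every row of the deposited count table whose symbol is Rpl or Rps with a number and its letter suffix, Rplp0, Rplp1, Rplp2 or Rpsa. Pseudogene rows ending in -ps and Rpl3, which has near copies in the genome, were left out. This gave 87 genes of 49568 rows, grouped by symbol into 43 of the core large subunit, 34 of the core small subunit, 3 of the stalk of the large subunit, and 7 paralogues of other members or of Rpl3. GENCODE annotates 82 of the 87 as protein coding and 5 as pseudogenes despite their symbols, with Rpl6l in the large subunit group, Rps12l1, Rps3a2 and Rps3a3 in the small, and Rps4l among the paralogues. After the filter on low counts, 82 of 14712 genes tested were ribosomal protein genes, and Rpl10l, Rpl39l, Rpl6l, Rps12l1 and Rpl24 were not tested.

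RNA was sequenced from cardiomyocytes of male mice at 11 weeks of age, with 3 libraries in each of 4 groups. In the dKO TAC group, mice lacking Mrtf-a in all cells (Mrtf-a-/-) and carrying Mrtf-b flox/flox had trans-aortic constriction (TAC), which loads the left ventricle with pressure, and the dKO sham group had the same genotype with sham surgery. The control TAC and control sham groups had the same surgeries but carried only the transgene that both genotypes share, MHC-MerCreMer (written MerCreMre in the labels), a tamoxifen-inducible Cre driven by the alpha myosin heavy chain promoter of cardiomyocytes. All mice had 3 daily tamoxifen injections at 30 ug/g from 8 weeks of age, and hearts were taken 7 days after surgery. The protocol gives surgery at 10 weeks and the design text at 8 weeks. Because the Mrtf-a allele is a germline null and the Mrtf-b deletion needs an active Cre, the groups differ by both. Myocardin-related transcription factors are coactivators of serum response factor that respond to actin dynamics. Cardiomyocytes were settled by gravity for 10 min, so other heart cells could remain.

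Ribosomal proteins are made in near equal numbers in the classical view, and their mRNAs carry a pyrimidine run at the 5′ end, the terminal oligopyrimidine (TOP) motif, through which mTORC1 controls their translation. Growth of heart muscle under load comes with more ribosomes per cell. Some ribosomal proteins have tissue-restricted paralogues. Rpl3l replaces Rpl3 in ribosomes of striated muscle, and Rpl22l1, Rps27l, Rpl7l1 and Rpl39l have broadly expressed counterparts.

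The targeted genes were read first. Mkl1, the gene of Mrtf-a, had 2.501, 2.93 and 2.22 CPM (reads scaled to a common library total) in dKO TAC, 2.15, 2.88 and 3.20 in dKO sham, 9.32, 16.0 and 15.6 in control TAC, and 7.58, 11.4 and 8.89 in control sham. Mkl2, the gene of Mrtf-b, lay between 15.2 and 28.1 CPM in the dKO libraries and between 30.1 and 44.1 CPM in the controls. Both genes were lower in every dKO library than in every control library, narrowly so for Mkl2. The labels give the genotypes and no mRNA levels. Libraries held 20082000 to 29675212 counts in all. The 10 listed cardiomyocyte markers summed to between 49882 and 143453 CPM per library. The 10 fibroblast markers summed to between 2935 and 4056 CPM in dKO TAC, 296 and 701 in dKO sham, 1167 and 10150 in control TAC, and 411 and 862 in control sham. No listed marker of cardiomyocytes, fibroblasts, myeloid cells, endothelium, mural cells, blood or cycling cells was at 0 in every library. In such bulk samples, fewer cells of a type and less RNA per cell cannot be told apart.

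Summed over all 87 genes, ribosomal protein mRNA took nearly the same level in 10 of the 12 libraries in the scaling used here. The sum was 10102, 16613 and 9536 CPM in dKO TAC, 28005, 10427 and 10684 CPM in dKO sham, 10209, 10115 and 10881 CPM in control TAC, and 9645, 9656 and 10426 CPM in control sham. A pair of dKO libraries, dKO sham replicate 1 and dKO TAC replicate 2, stood far above the rest, and the other 10 lay between 9536 and 10881 CPM. The group means were 12084 ± 3933 CPM in dKO TAC, 16372 ± 10075 in dKO sham, 10402 ± 418 in control TAC and 9909 ± 448 in control sham (SD, n = 3 each). Without the 2 high libraries, the means were 9819 CPM in dKO TAC and 10556 CPM in dKO sham (n = 2 each). Scaled by plain library totals, the same 10 libraries ran from 8669 to 12130 CPM. There, every control TAC library (9739 to 12130 CPM) lay above every control sham library (8669 to 9566 CPM).

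**Figure D1:**
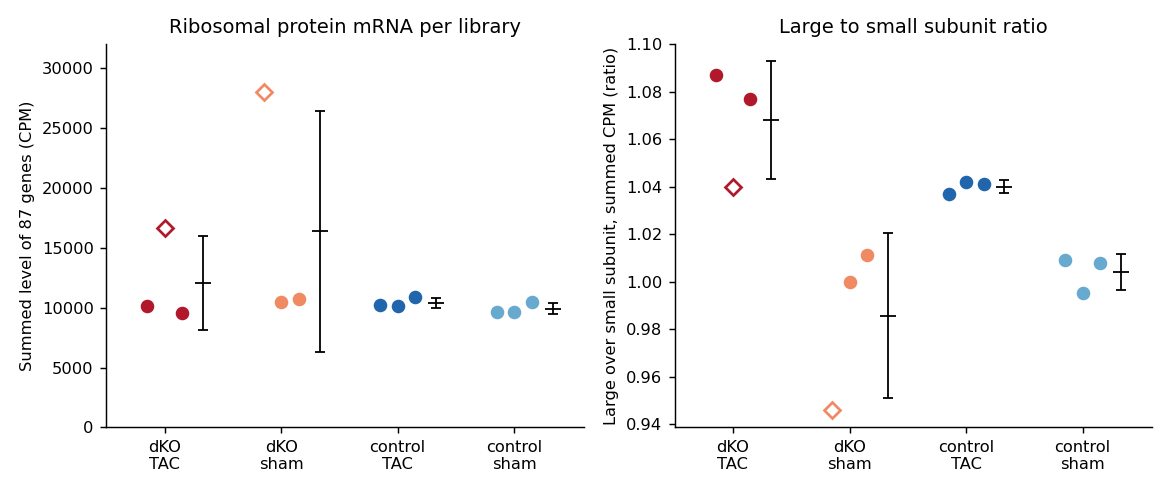
Left, summed level of the 87 ribosomal protein genes (CPM) per library in the 4 groups; right, the ratio of the summed core large to core small subunit genes. Points are libraries, open diamonds are dKO sham replicate 1 and dKO TAC replicate 2, and bars are mean ± SD of 3 libraries. The 2 diamonds on the left stand at 16613 CPM in dKO TAC and 28005 CPM in dKO sham, above all others, and on the right every TAC library lies at or above 1.037 and every sham library at or below 1.011. The ratio axis does not start at 0.

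The rise in these 2 libraries ran through the whole family. All 80 members at 5 CPM or more were higher in dKO TAC replicate 2 than in the mean of its other replicates, by a median of 0.80 on the log2 scale. The same held for all 80 in dKO sham replicate 1, with a median difference of 1.42. In dKO TAC replicate 2, Rpl38 was highest at 1.04 and Rpl30 lowest at 0.09. In dKO sham replicate 1, Rpl36, with a transcript of 383 nt, was highest at 2.10, and Rpl7l1, with 2606 nt, lowest at 0.39. Both libraries favoured short transcripts genome-wide. Across 9684 genes, Spearman's rho was taken between the length of a gene's merged exons and its deviation from the other replicates. It was -0.592 in dKO TAC replicate 2 and -0.615 in dKO sham replicate 1, against values from -0.098 to 0.113 in the 6 control libraries. The other dKO libraries, whose replicates include these 2, had 0.45 to 0.642. Among the 80 members alone, rho with transcript length was -0.208 in dKO TAC replicate 2 and -0.366 in dKO sham replicate 1. The 2 libraries also had the lowest share of mitochondrially encoded counts, 15.3% and 16.5% in the same order, against 23.2% to 32.6% in the other 10. The nuclear oxidative phosphorylation genes, another family of short mRNAs, summed to 40305 CPM in dKO TAC replicate 2, against 31994 and 33861 CPM in the other dKO TAC libraries, and to 112346 CPM in dKO sham replicate 1, against 46170 and 42966 CPM in the other dKO sham libraries. Results are therefore given with and without these 2 libraries.

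**Figure D2:**
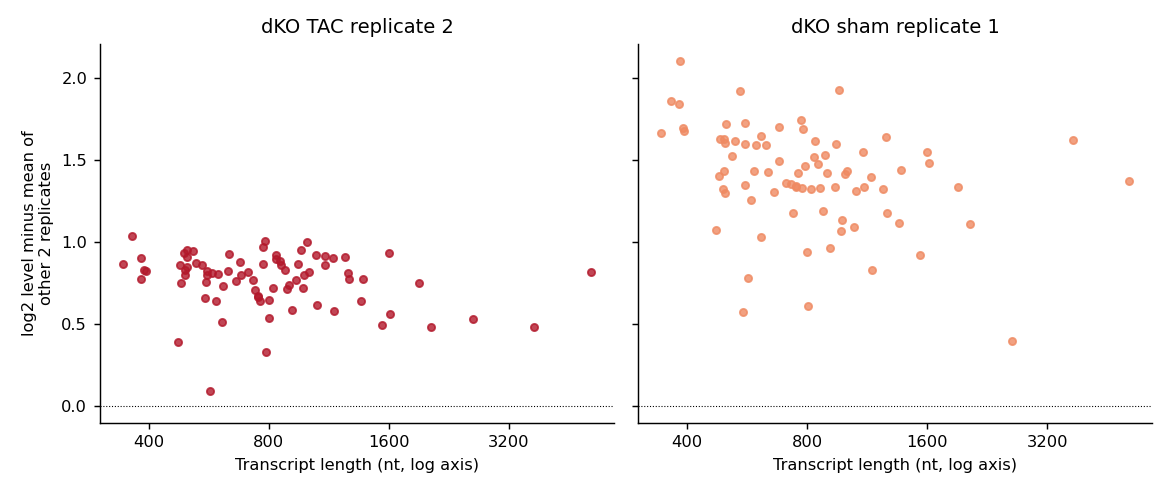
Deviation of each of the 80 members at 5 CPM or more from the mean of the other 2 replicates (log2) against its annotated transcript length (nt, log axis), in dKO TAC replicate 2 (left) and dKO sham replicate 1 (right). Every point lies above 0, with a median of 0.80 on the left and 1.42 on the right, and the shortest transcripts of the right panel are among the highest.

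Levels differed widely between members. Among the 80 members at 5 CPM or more in the mean of the other 10 libraries, the lowest had 7.20 CPM (Rpl13a), the median 112 CPM and the highest 437 CPM. The highest was Rplp0, which anchors the stalk that recruits translation factors. Per kilobase of transcript, Rplp1, its partner in the stalk, stood at 566 CPM and Rplp0 at 322 CPM. Rplp2 completes the stalk and had 142 CPM per kilobase on an annotated transcript of 964 nt. Of the large subunit proteins, Rpl4 had 421 CPM and Rpl5 and Rpl11, which bind the 5S RNA, had 128 and 120 CPM. Of the small subunit, Rps6, the substrate of the S6 kinases, had 89.8 CPM. Rps19, a gene mutated in Diamond-Blackfan anaemia, had 70.3 CPM, and Rps27a, made as a fusion with ubiquitin, had 112 CPM. Near copies limit such levels, and how reads that fit several loci were counted is not known here. A median of 39.8% of a member's 100-nt windows recurred in another annotated transcript, and 36 members shared at least 50%. The share was 80.1% for Rpl24, a core protein gene that had only 0.149 CPM, and 55.2% for Rpl13a. Over the 80 members, the shared portion and the level per kilobase had a Spearman's rho of -0.083, as a description across genes.

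RefSeq promoters (GRCm38.p6, 250 bases before to 50 after the start) were held for 63 of the 87 genes. A C followed by at least 4 pyrimidines stood at the annotated start in 13 of 63 (20.6%), against 3.01% of 27025 genes. A C followed by at least 5 pyrimidines fell within 5 bases before to 11 after the start in 26 (41.3%), against 11.9% of all. The 60 bases around the start (50 before, 10 after) are shown for the members the results below turn on, with the pyrimidine run in capitals, and for Rpl3l with CAGCTG, an E-box, in capitals.
Rpl3l, chr17:24727776-24727835, plus strand: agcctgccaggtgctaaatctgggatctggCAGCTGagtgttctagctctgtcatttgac
Rpl39, chrX:37085213-37085272, minus strand: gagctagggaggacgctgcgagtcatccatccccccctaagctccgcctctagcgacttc
Rps27, chr3:90213639-90213698, minus strand: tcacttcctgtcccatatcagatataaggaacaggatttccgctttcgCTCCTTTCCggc
Rps21, chr2:180257329-180257388, plus strand: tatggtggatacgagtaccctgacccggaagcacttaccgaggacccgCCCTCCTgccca
Rpl12, chr2:32961662-32961721, plus strand: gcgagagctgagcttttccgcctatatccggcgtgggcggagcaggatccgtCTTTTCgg
Rps3, chr7:99483700-99483759, minus strand: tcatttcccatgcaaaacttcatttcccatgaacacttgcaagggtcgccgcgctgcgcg
Rps6, chr4:86857358-86857417, minus strand: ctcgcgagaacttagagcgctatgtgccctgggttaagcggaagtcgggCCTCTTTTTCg
Marked runs are a C followed by at least 5 pyrimidines, only from 5 bases before the start to the end of the stretch shown. Rps27, Rps21, Rpl12 and Rps6 carry such a run there, whereas Rpl3l, Rpl39 and Rps3 do not. Rpl39 has a C followed by 4 pyrimidines across its start, and its longer run farther upstream is not marked. Rpl3l and Rps21 each have a second RefSeq entry, with no run in that window. Over the whole 300 bases and both strands, CCGGAAG, bound by ETS family factors such as GABPA, was in 26 of 63 members (41.3%), against 9.93% of all genes. AAGATGG, the core of the YY1 motif, was in 15.9% of members and 7.28% of all. CATTCC, bound by TEAD factors, was in 9.52% of members and 16.6% of all, and TATAAA in 11.1% and 15.7%. CAGCTG was in 4 members (Rpl35, Rpl6, Rpl10l and Rpl3l; 6.35%) and in 18.3% of all. The CArG box, the motif of serum response factor, was in 1 member (Rpl10a; 1.59%) and in 1.81% of all. CCGGAAG and AAGATGG can share their AAG, TATAAA can lie within a CArG box, and a match is not a bound site.

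The first comparison asks how pressure load changed the family in the dKO hearts. Rpl3l, which encodes the muscle paralogue of Rpl3, fell in dKO TAC, and no other member passed the test with all libraries. Rpl3l (chromosome 17, 24727820 to 24736143, plus strand) had 54.5, 107 and 72.0 CPM in dKO TAC, against 629, 245 and 221 CPM in dKO sham. Every dKO TAC library lay below every dKO sham library. The log2 change was -2.23 ± 0.43 (SE), with a Benjamini-Hochberg adjusted p = 0.0122 by the quasi-likelihood test of edgeR. Over all genes tested, 4.2% were called higher and 3.19% lower in this comparison, beside 0 and 1 of the 82 members. At an unadjusted p under 0.05, 0 members were higher and 5 lower, beside 12.8% and 14.8% of all genes, and DESeq2 and limma-voom called no member higher. In no member was every dKO TAC library above every dKO sham library, and in Rpl3l alone were all below, beside 16.2% and 14.6% of all genes.

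The Rpl3l call depended on the dKO TAC replicates kept. Leaving out dKO TAC replicate 1 gave -2.03 (edgeR, Benjamini-Hochberg adjusted p = 0.0728) and leaving out replicate 3 gave -2.18 (edgeR, Benjamini-Hochberg adjusted p = 0.0600). With the 2 high libraries left out it was -1.88 ± 0.34 (edgeR, Benjamini-Hochberg adjusted p = 0.0115), and with the transcript length trend removed it was -1.74 (edgeR, Benjamini-Hochberg adjusted p = 0.00356). Across 23 alternatives the change stayed negative, from -2.53 to -1.58, and 21 kept the call. Of the cardiomyocyte markers 1 of 10, Ckm, was called lower in the same comparison, and of the fibroblast markers 5 of 10 were called higher. Beside them, 3.19% of all genes tested were called lower and 4.2% higher with all libraries. The summed cardiomyocyte markers were 49882 to 57051 CPM in dKO TAC and 64372 to 143453 CPM in dKO sham. The part of cell composition in the Rpl3l result was not tested.

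In control hearts, Rpl3l went the same way without passing the test. It had 199, 110 and 96.0 CPM in control TAC and 278, 196 and 279 CPM in control sham. Control TAC replicate 1 lay within the control sham range, so the groups overlap. The log2 change was -0.89 ± 0.42 with all libraries (edgeR, Benjamini-Hochberg adjusted p = 0.301) and -0.90 ± 0.27 without the 2 libraries (edgeR, Benjamini-Hochberg adjusted p = 0.0782). The difference between the 2 genotypes' load effects was -1.33 ± 0.58 (edgeR, Benjamini-Hochberg adjusted p = 0.841, unadjusted p = 0.0412). Between dKO TAC and control TAC the change was -0.79 ± 0.42 (edgeR, Benjamini-Hochberg adjusted p = 0.632), and -1.09 ± 0.31 without the 2 libraries (edgeR, Benjamini-Hochberg adjusted p = 0.0894). Between dKO sham and control sham it was 0.54 ± 0.41 with all libraries (edgeR, Benjamini-Hochberg adjusted p = 0.563) and turned to -0.11 ± 0.30 without the 2 libraries (edgeR, Benjamini-Hochberg adjusted p = 0.986). These comparisons share libraries, so their values are not independent. A larger fall of Rpl3l in dKO than in control hearts was thus not established by the interaction test.

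Rpl3, the ubiquitous counterpart, ran the other way. It had 213, 301 and 173 CPM in dKO TAC, 191, 101 and 112 CPM in dKO sham, 131, 166 and 186 CPM in control TAC, and 90.4, 104 and 90.8 CPM in control sham. Every control TAC library was above every control sham library, whereas the dKO groups overlap through dKO sham replicate 1. Without the 2 libraries, Rpl3 rose in dKO TAC by 0.85 ± 0.18 on the log2 scale (edgeR, Benjamini-Hochberg adjusted p = 0.0206) and in control TAC by 0.76 ± 0.15 (edgeR, Benjamini-Hochberg adjusted p = 0.0288). With all libraries the changes were 0.76 in both, with edgeR Benjamini-Hochberg adjusted p = 0.0952 in dKO and 0.165 in controls. Its values are uncertain, since 79.4% of its 100-nt windows recur elsewhere, whereas Rpl3l shares none. The pseudogene row Rpl3-ps1, looked up after its values were seen, had 3.99 to 11.8 CPM in the 6 dKO libraries and at most 0.391 CPM in the 6 controls.

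The ratio of Rpl3l to Rpl3 within a library does not depend on the library's total. It was 0.256, 0.356 and 0.417 in dKO TAC, 3.30, 2.42 and 1.96 in dKO sham, 1.52, 0.663 and 0.515 in control TAC, and 3.07, 1.88 and 3.07 in control sham. Every TAC library was below every sham library, and every dKO TAC library was below every control TAC library. The row Rpl3-ps1 also differed by genotype, and the part of the near copies of Rpl3 in this ratio was not tested. The transcripts are 1375 nt for Rpl3l and 1351 nt for Rpl3, so length enters the ratio little. Because 79.4% of the windows of Rpl3 recur elsewhere, and how such reads were counted is not known, the ratio does not tell which mRNA was the more abundant.

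**Figure D3:**
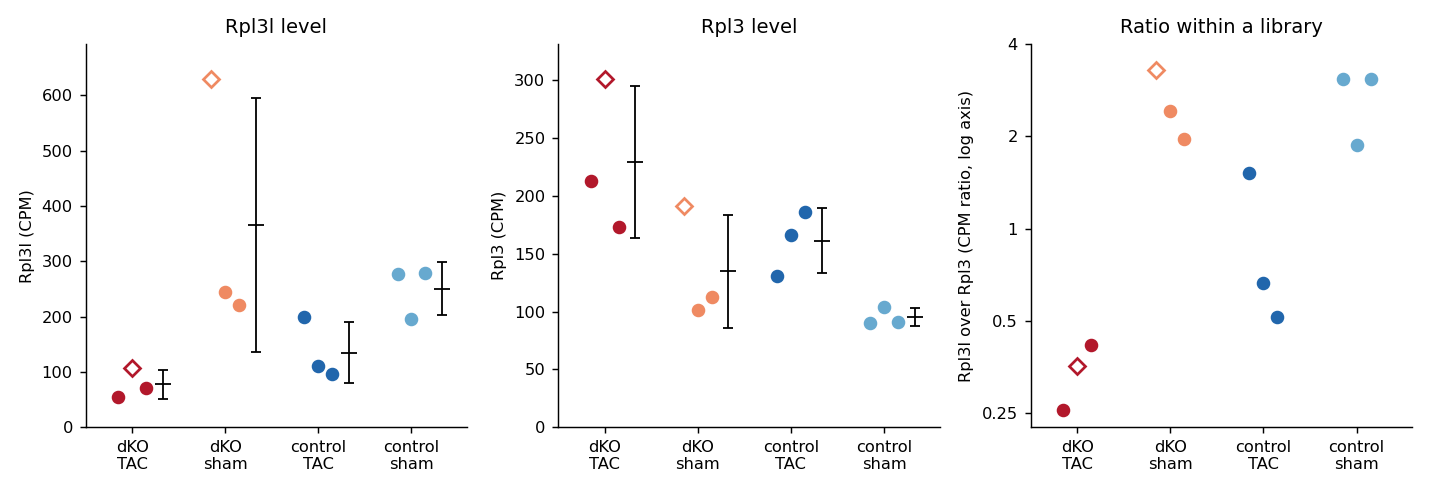
Rpl3l (left) and Rpl3 (middle) in CPM, and their ratio on a log axis (right), per library in the 4 groups. Points are libraries, open diamonds are dKO TAC replicate 2 and dKO sham replicate 1, and bars are mean ± SD of 3 libraries. The ratio lies between 0.256 and 0.417 in dKO TAC, 1.96 and 3.30 in dKO sham, 0.515 and 1.52 in control TAC, and 1.88 and 3.07 in control sham.

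Over the whole family, the difference between dKO TAC and dKO sham was smaller once the 2 libraries were set aside. With all libraries the median member stood at -0.39 on the log2 scale, with 6 of 82 positive, beside a median of -0.01 over all genes tested. Without them it stood at -0.09, with 22 of 81 positive. In that fit 1 member was called higher and 3 lower, Rpl3l among them, beside 5.93% and 4.66% of all genes tested. Rpl39, a small protein of the exit tunnel, rose by 0.59 ± 0.14 (edgeR, Benjamini-Hochberg adjusted p = 0.0275). Rps21 fell by 0.46 (edgeR, Benjamini-Hochberg adjusted p = 0.0420) and Rps27 fell by 0.49 (edgeR, Benjamini-Hochberg adjusted p = 0.0496), both small subunit proteins. With all 12 libraries none of the 3 passed, at 0.35, -0.93 and -0.92 (edgeR, Benjamini-Hochberg adjusted p = 0.407, 0.156 and 0.161). The 4 calls in 81 members are no larger a share than that of all genes called. In 17 members both dKO TAC libraries were above both dKO sham libraries (21%) and in 42 both were below (51.9%), beside 34.9% and 34.7% of all genes. With all libraries and the transcript length trend removed, Rpl39 rose by 0.84 (edgeR, Benjamini-Hochberg adjusted p = 0.00418), as did Rpl10, a large subunit protein that joins last, by 0.59 (edgeR, Benjamini-Hochberg adjusted p = 0.0428), beside 6.04% of genes called higher and 4.39% lower. Rpl10 is uncertain, since 91.6% of its windows recur elsewhere.

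In control TAC against control sham, the members shifted slightly upward. The median was 0.08 on the log2 scale, beside 0.00 for all genes, and 66 of 82 members were positive. In this comparison 0 members were called in either direction, beside 1.9% of genes higher and 0.347% lower. At an unadjusted p under 0.05, 0 were higher and 1 lower by edgeR, beside 10.8% and 6.1% of all genes, and DESeq2 and limma-voom also called none. In 18 members every control TAC library was above every control sham library, and in none was it below, beside 11.1% and 10.7% of all genes tested. Without the 2 libraries, whose spread enters the shared dispersion, Rpl13a rose by 0.67 ± 0.15 (edgeR, Benjamini-Hochberg adjusted p = 0.0414) and Rpl39 by 0.48 ± 0.11 (edgeR, Benjamini-Hochberg adjusted p = 0.0430), beside 3.36% of all genes called higher, and 0 members fell, beside 1.81% of all genes. With the transcript length trend removed, Rpl39 rose by 0.57 (edgeR, Benjamini-Hochberg adjusted p = 0.0412) and no other member was called, beside 2.45% of genes higher and 0.591% lower. Rpl13a, known for its part in interferon-induced translational silencing in human cells, had 7.56, 9.18 and 8.74 CPM in control TAC and 4.66, 5.04 and 6.25 CPM in control sham.

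**Figure D4:**
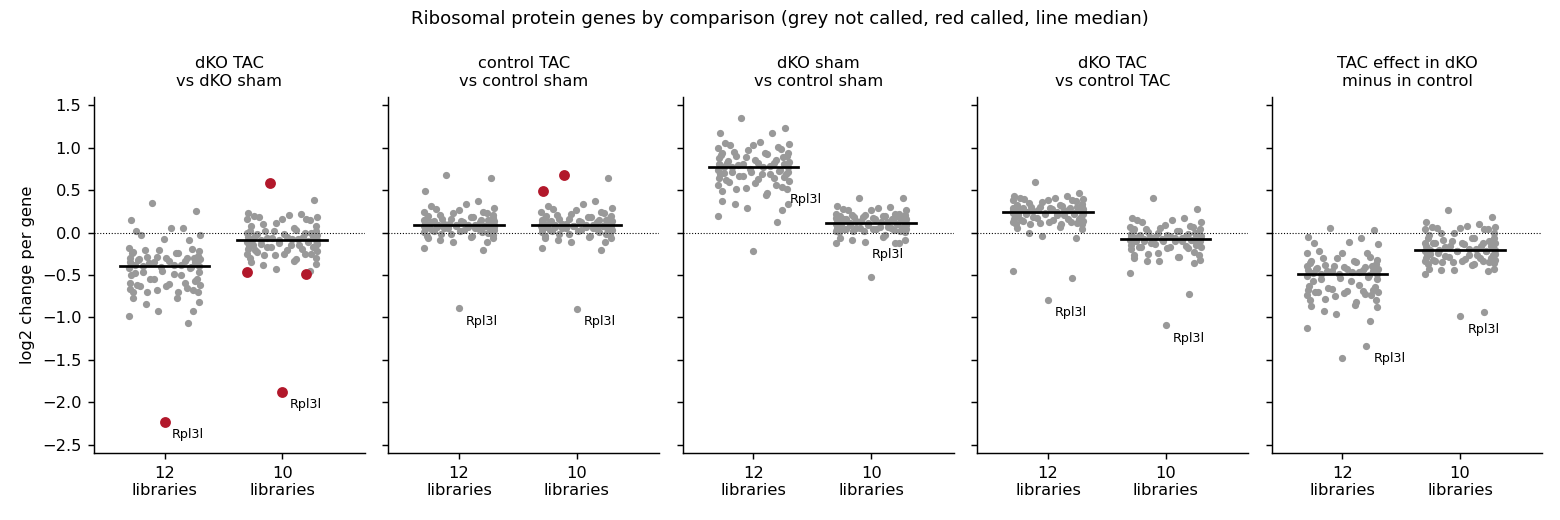
log2 change of each tested member in the 5 comparisons, with all 12 libraries (left column) and with dKO TAC replicate 2 and dKO sham replicate 1 left out (10 libraries, right column). Grey points did not pass and red points passed edgeR's test, and black lines are medians. Rps3a3, which rests on 1 library, is not drawn. The medians of dKO sham against control sham are near 0.78 with 12 and 0.12 with 10 libraries.

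The dKO genotype without load had a family median that depended on dKO sham replicate 1, and no call. With all libraries the median member stood at 0.78 in dKO sham against control sham, with 80 of 82 positive and 38 not overlapping upward, beside 9.35% of all genes, and 0 downward, beside 9.36%. In this comparison 0 members were called by edgeR, DESeq2 or limma-voom, beside 0.0408% of genes higher and 0.0272% lower, although 35 members had an unadjusted p under 0.05 upward and 1 downward, beside 6.27% and 2.98% of all genes. Without dKO sham replicate 1 the median was 0.11, and without both libraries it was 0.12, with 71 of 81 positive. The same 38 members did not overlap upward, beside 13.4% of all genes. That count could not fall, because dKO sham replicate 1 held the highest dKO sham value of each of them. With both libraries left out, Rpl22, Rpl30 and Rpl10 lay below all control sham libraries, beside 13.3% of all genes. Again 0 members were called by edgeR, beside 0.0402% of genes higher and 0.0335% lower, with 7 higher and 1 lower at an unadjusted p under 0.05, beside 2.81% and 3.73%. Rpl41 had 0.40 ± 0.12 and Rpl28 had 0.32 ± 0.09 in that fit (edgeR, Benjamini-Hochberg adjusted p = 0.541 for each), and Rpl30 had -0.52 ± 0.12 (edgeR, Benjamini-Hochberg adjusted p = 0.259). Under load, dKO TAC against control TAC, the median was 0.24 with all libraries and -0.07 without the 2, beside -0.05 for all genes tested. Here too 0 members were called by edgeR, DESeq2 or limma-voom, beside 0.306% of genes higher and 0.122% lower. At an unadjusted p under 0.05, 1 member was higher and 1 lower, beside 4.78% and 4.09% of all genes. All dKO TAC libraries lay above all control TAC libraries for Rpl22 and Rpl39 and below them for Rpl30, beside 9.8% and 7.79% of all genes.

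Without the 2 libraries 0 members were called under load by edgeR, beside 2.37% of genes higher and 1.04% lower. At an unadjusted p under 0.05, 1 was higher and 11 lower, beside 10.6% and 10.1% of all genes. In 2 members both dKO TAC libraries lay above all control TAC libraries (2.47%) and in 23 below (28.4%), beside 18.3% and 17% of all genes. Leaving out dKO TAC replicate 2 alone turned the family's median under load to -0.06.

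The load effect in dKO minus that in controls had a median of -0.48 over the members with all libraries, and -0.21 without the 2, beside -0.07 and -0.03 for all genes tested. In the interaction 0 of 82 members were called by edgeR, with 0 higher and 1 lower at an unadjusted p under 0.05, beside 0% of genes called and 2.45% and 2.29% at the unadjusted p. DESeq2 and limma-voom called no member either. Without the 2 libraries 0 of 81 were called by edgeR, beside 0.0134% of genes higher and 0% lower. There 0 were higher and 10 lower at an unadjusted p under 0.05, beside 7.4% and 6.63% of all genes. Leaving out dKO sham replicate 1 alone turned the median to 0.11, and leaving out dKO TAC replicate 2 alone gave -0.82.

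Within the family, some members changed their share of the summed ribosomal protein level, a measure from which the rise of the whole family in the 2 libraries cancels but differences between its short and long members do not. The proteins named here were chosen after their values were seen. Rpl39 made up 0.731%, 0.648% and 0.815% of the sum in dKO TAC, 0.367%, 0.475% and 0.479% in dKO sham, 0.494%, 0.534% and 0.614% in control TAC, and 0.416%, 0.411% and 0.407% in control sham. Every TAC library was above every sham library. Rpl12, a protein at the base of the stalk, ranged from 1.46% to 1.63% in dKO TAC, 1.14% to 1.21% in dKO sham, 1.28% to 1.49% in control TAC and 1.14% to 1.19% in control sham, with 46.8% of its windows recurring elsewhere. With Rpl13a, 3 of 82 members (3.66%) had all 6 TAC above all 6 sham libraries, close to the 2.84% of all genes when set over the same sum. The summed markers of fibroblasts were also higher in every TAC than in every sham library, as were those of cycling cells, at 99.2 to 140 CPM in dKO TAC, 8.84 to 26.0 in dKO sham, 84.1 to 208 in control TAC and 13.2 to 36.4 in control sham, and their part in the shares was not tested.

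The shares of Rps21, Rps27 and Rpl3l were lower in all 6 TAC than in all 6 sham libraries, 3.66% of members beside 1.06% of all genes. Rps21 ranged from 0.677% to 0.727% in dKO TAC, 0.885% to 1.08% in dKO sham, 0.797% to 0.878% in control TAC and 0.906% to 1.02% in control sham. Rps27 ranged from 0.866% to 0.966% in dKO TAC, 1.16% to 1.40% in dKO sham, 0.969% to 1.104% in control TAC and 1.15% to 1.33% in control sham. Its values are uncertain, as 98.4% of its windows recur elsewhere, whereas Rps21 shares none. Both have very short transcripts, 394 nt for Rps21 and 345 nt for Rps27, and Rpl39 has 612 nt. Rps27l, the paralogue of Rps27, stood at 0.364, 0.375 and 0.364 times Rps27 in dKO TAC, 0.213, 0.285 and 0.265 in dKO sham, 0.380, 0.365 and 0.316 in control TAC, and 0.298, 0.239 and 0.281 in control sham, higher in every TAC than in every sham library. No such split by surgery was seen for Rpl22l1 over Rpl22, from 0.0904 to 0.127 in dKO TAC, 0.0865 to 0.125 in dKO sham, 0.107 to 0.139 in control TAC and 0.106 to 0.138 in control sham.

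As subunits, the core large over small subunit ratio of summed CPM was 1.087, 1.040 and 1.077 in dKO TAC, 0.946, 1.0 and 1.011 in dKO sham, 1.037, 1.042 and 1.041 in control TAC, and 1.009, 0.995 and 1.008 in control sham. Every TAC library was above every sham library in both genotypes. The difference was a few percent, and without the 2 libraries the means were 1.082 in dKO TAC and 1.006 in dKO sham, and 1.040 in control TAC and 1.004 in control sham.

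The dKO genotype went with a lower share of Rps3 and Rpl30 in all 6 dKO than in all 6 control libraries. This split held in 3 of 82 members (3.66%), these 2 among them, beside 0.89% of all genes set over the same sum. The opposite split held in 0 members, beside 0.102% of all genes. Rpl30, a large subunit protein that binds its own transcript in yeast (chromosome 15, 34440505 to 34443640, minus strand), had 54.5, 55.7 and 50.3 CPM in dKO TAC, 94.1, 50.7 and 59.5 CPM in dKO sham, 73.8, 70.2 and 75.2 CPM in control TAC, and 75.1, 87.2 and 74.6 CPM in control sham. The dKO TAC libraries all lay below the control TAC libraries, and in dKO sham only replicate 1 reached the controls. Its share ranged from 0.335% to 0.539% in dKO TAC, 0.336% to 0.556% in dKO sham, 0.691% to 0.723% in control TAC and 0.715% to 0.903% in control sham. Its values are uncertain, since 53.5% of its windows recur in 10 other genes. The test gave -0.45 ± 0.20 for dKO TAC against control TAC (edgeR, Benjamini-Hochberg adjusted p = 0.555), and -0.48 ± 0.12 without the 2 libraries (edgeR, Benjamini-Hochberg adjusted p = 0.0540). Rps3, a small subunit protein at the mRNA entry, ranged from 1.998% to 2.09% in dKO TAC, 2.26% to 2.44% in dKO sham, 2.46% to 2.49% in control TAC and 2.60% to 3.02% in control sham, and shares no windows.

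**Figure D5:**
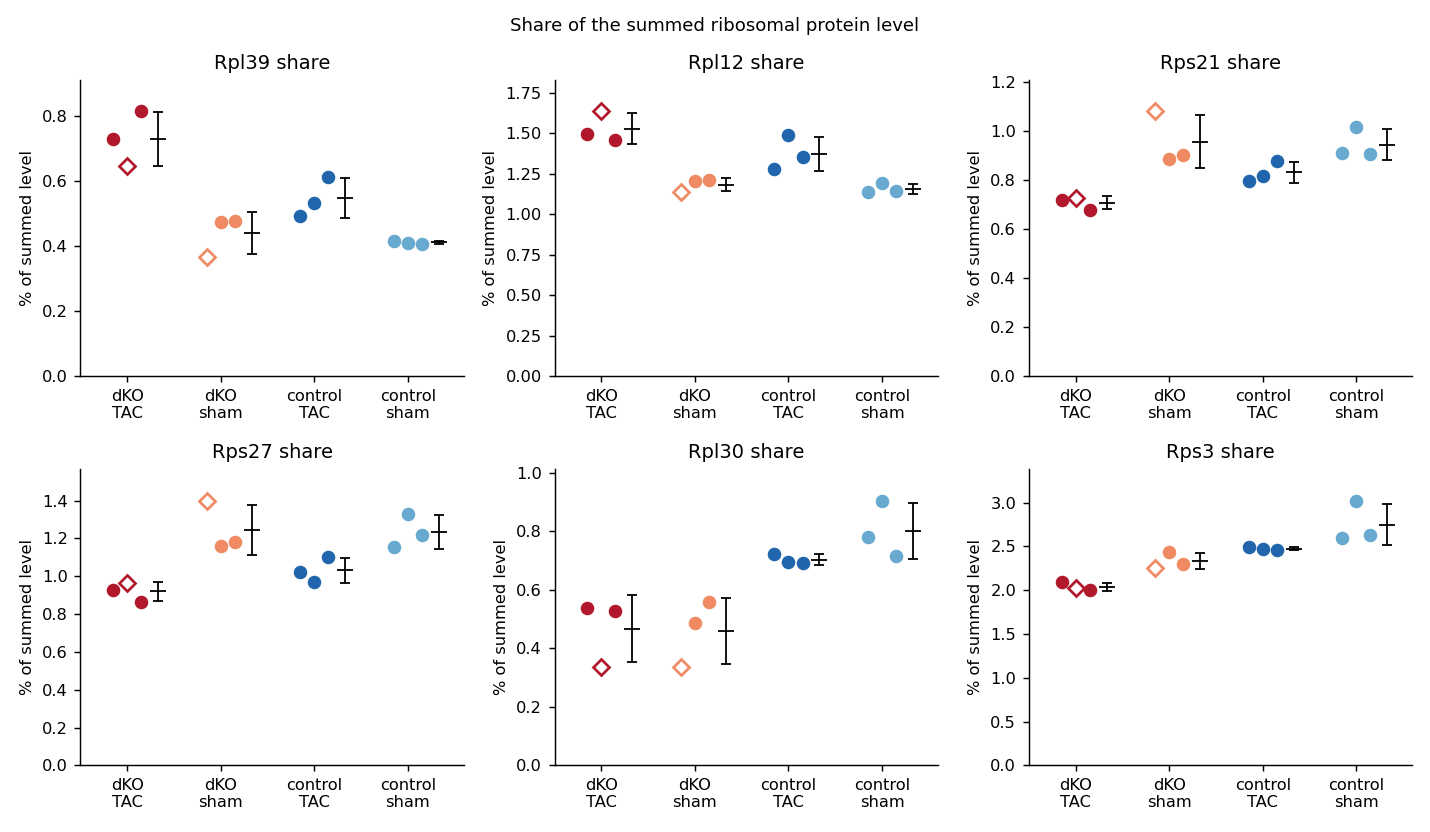
Share of the summed ribosomal protein level (%) of Rpl39, Rpl12, Rps21, Rps27, Rpl30 and Rps3 per library in the 4 groups. Points are libraries, open diamonds are dKO TAC replicate 2 and dKO sham replicate 1, and bars are mean ± SD of 3 libraries. Rpl39 and Rpl12 are higher, and Rps21 and Rps27 lower, in all TAC than in all sham libraries, while Rpl30 and Rps3 are lower in all dKO than in all control libraries.

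The other paralogues were low or flat. Rpl7l1 had 32.6, 48.0 and 34.1 CPM in dKO TAC, 51.8, 37.0 and 42.0 CPM in dKO sham, 41.7, 42.8 and 33.6 CPM in control TAC, and 37.5, 38.1 and 38.3 CPM in control sham. The testis-expressed Rpl10l was at 0 in 11 libraries and at 1.92 CPM in control sham replicate 2, where 3 counts correspond to 0.128 CPM. Rpl39l was at most 0.307 CPM in 11 libraries and 6.79 CPM in the same control sham replicate 2. Rps3a3, annotated as a processed pseudogene, had 20.0 CPM there and at most 0.614 CPM elsewhere. In control sham replicate 2 the ribosomal protein pseudogene rows also summed to 215 CPM, against 21.4 to 89.6 CPM in the other 11, and 376 genes stood over 5 times above every other library, against 0 to 13. The fitted Rps3a3 values of -4.57 in control TAC and -4.46 in dKO sham, both against control sham, rest on that library and missed the threshold (edgeR, Benjamini-Hochberg adjusted p = 0.157 and 0.507).

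Around the ribosomal proteins, few genes of ribosome production passed the test in dKO TAC against dKO sham. Of 57 tested genes of ribosome assembly, Rrp12 and Tsr1, which act in export and maturation of the small subunit, rose and none fell, 2 of 57 beside 4.2% of all genes called higher and 3.19% lower. Tsr1 had 26.8, 26.0 and 27.9 CPM in dKO TAC and 18.4, 18.3 and 16.7 CPM in dKO sham, a change of 0.60 ± 0.14 (edgeR, Benjamini-Hochberg adjusted p = 0.0284). Rrp12 had 49.1 to 51.3 CPM in dKO TAC and 23.5 to 28.9 CPM in dKO sham. It lost its call without the 2 libraries, at 0.80 (edgeR, Benjamini-Hochberg adjusted p = 0.0743), where Tsr1 rose and Nop10, Rrp9 and Emg1 fell, beside 5.93% of all genes higher and 4.66% lower. Of 18 genes of RNA polymerase I transcription, Taf1a, a subunit of the promoter selectivity factor, and Max, the partner of Myc, fell, and Taf1a lost its call without the 2 libraries (edgeR, Benjamini-Hochberg adjusted p = 0.0601). Of 49 translation factors, 10 other TOP mRNA genes and 18 genes of mTORC1 and its S6 kinases, 0 were called by edgeR, with 6, 4 and 0 higher and 3, 0 and 2 lower at an unadjusted p under 0.05, beside 12.8% and 14.8% of all genes. Limma-voom also called 0 of these, while DESeq2 called 4, 3 and 0 higher and 0, 0 and 1 lower. The share of all genes that DESeq2 called is not given here. Without the 2 libraries, Eif3a, Eif3h and Eif4ebp1 rose among the translation factors, and Eif3a did so by 0.78 ± 0.11 (edgeR, Benjamini-Hochberg adjusted p = 0.00446).

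The mitochondrial ribosomal proteins, made by another gene family for the organelle's own ribosome, had a lower median than the cytosolic ones in dKO TAC against dKO sham. All 77 tested were negative with all libraries, at a median of -0.73. Mrps9 and Mrpl4 fell by edgeR, beside 3.19% of all genes called lower by edgeR. DESeq2 called 19 members and limma-voom 0, and the shares of all genes called by these tools are not given here. Without the 2 libraries the median was -0.40, 12 of 77 fell and none rose, beside 4.66% of all genes lower and 5.93% higher. The cytosolic median in that fit was -0.09. Their sum was 2772, 4005 and 2953 CPM in dKO TAC, 9139, 3828 and 3691 CPM in dKO sham, 3917, 3156 and 2800 CPM in control TAC, and 3801, 3179 and 3843 CPM in control sham. In control TAC against control sham 0 of 77 were called by edgeR with all libraries, beside 1.9% of all genes higher and 0.347% lower. At an unadjusted p under 0.05 there were 0 in either direction, beside 10.8% of all genes higher and 6.1% lower. DESeq2 and limma-voom also called 0 of the 77. Vim was the only gene called among the TOP mRNA genes in the same comparison, and it is also abundant in fibroblasts.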

How the data were processed

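Poly(A) RNA of 12 cardiomyocyte samples was sequenced as single 100-nt reads with a strand-marking kit, per the labels' protocols. The authors deposited a table of raw read counts per gene. Trimmomatic 0.36, STAR 2.5.2b, Subread 1.5.0p3 with featureCounts and GRCm38.p5 are named in the submitters' processing notes, while the sources used here do not give their settings, the strand setting or the handling of multi-mapping reads. Overlapping and antisense genes were therefore not told apart.

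From the counts, edgeR 4.0.16 (TMM, filterByExpr by group, quasi-likelihood F test, 4 group means, 8 residual degrees of freedom) was fitted over 14712 genes, with Benjamini-Hochberg adjustment over all of them. Calls are at adjusted p under 0.05, and SE is the log2 change over the root of F. CPM uses TMM library sizes. Each sample is 1 library, and no label says whether animals were pooled, so p-values measure the spread between these libraries. Counts of 3 correspond to 0.0935 to 0.184 CPM. Such floors cover counting error only. No 2 libraries of a group agreed within sampling noise (chi-square per degree of freedom from 20.4 to 378).

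Members, lists and markers were chosen with earlier results of these data known. Named were members that passed, the 3 highest and 3 lowest changes per comparison, and members picked by role. Genes chosen after seeing their values are named as such. The values of 1 member are not reported here. Lengths, positions and shared 100-nt windows come from GENCODE release 21 on GRCm38. The transcript length trend was fitted on the length of a gene's merged exons. Alternatives were DESeq2 1.42.0, limma-voom (limma 3.58.1), other scalings, no filter, only the groups compared, a replicate block, removal of the transcript length trend, leaving out dKO sham replicate 1 and dKO TAC replicate 2, and leaving out each library. Leaving out the 2 libraries together with removal of the length trend was added after seeing the data. The scripts were tested on simulated data.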

Additional observations from a re-analysis of the deposited data

How the results depend on the processing

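Of 2929 alternative values for named genes, 2716 kept direction and side of the threshold, 2 lost a call, 12 gained one, 199 uncalled values changed sign and 0 called ones did. With the length trend removed, 2 members were called higher (Rpl39 and Rpl10) and 1 lower (Rpl3l) in dKO TAC against dKO sham. There were 1 higher and 3 lower without the 2 libraries, and 1 higher and 1 lower (Rpl3l) with both steps. Leaving out 1 library gave 0 to 1 lower and 0 to 1 higher. In control TAC against control sham, 1 member was higher with the length trend removed, 2 without the 2 libraries and 3 with both. With no filter 2 were lower (Rps3a3 and Rpl39l), and both calls rest on control sham replicate 2. Rps3a3 and Rpl39l had 469 and 159 reads in that library, against at most 12 and 9 in any other. The median for control TAC against control sham was 0.158 with the trend removed and 0.162 with both. For dKO sham against control sham the median was 0.117 without the 2 libraries and 0.073 with both, and 0.113 to 1.01 over single omissions. The interaction median was -0.82 to 0.108 over single omissions. The summed level without mitochondrially encoded genes in the library size was 16147 CPM in dKO TAC, 22204 in dKO sham, 13983 in control TAC and 13408 in control sham. By plain totals it was 13524 CPM in dKO TAC, 14586 in dKO sham, 10988 in control TAC and 9228 in control sham.

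Same-numbered libraries did not pair, with 9 of 18 correlations of deviations over 0.1 and a range from -0.474 to 0.350. With the replicate block Rpl3l stayed called at -2.06 (edgeR, Benjamini-Hochberg adjusted p = 0.0205), and no other member's call changed. With 3 libraries a group, and 2 libraries that stand apart, calls of small changes depended on whether those 2 were kept.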
